A study of Saccharomyces cerevisiae S288C with 6 samples.

Results

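Peroxisomes are the organelles in which budding yeast breaks down fatty acids by beta-oxidation. Their biogenesis depends on peroxins, the products of the PEX genes, which import enzymes into the organelle, place proteins in its membrane and set its number and size. The enzymes are encoded by genes that glucose represses and that oleate, a fatty acid, induces. This induction runs through the transcription factor pair Oaf1 and Pip2 together with Adr1.

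The members were all annotated genes named PEX followed by a number, 10 named genes for beta-oxidation enzymes, transporters and peroxisomal catalase, and the regulators PIP2 and OAF1. This gave 37 of the 5449 annotated yeast genes on the array, namely 25 PEX genes, 10 enzyme and transporter genes and 2 regulator genes. Each of the 37 was read on 1 probe set that was not shared between sequences, and all 37 passed the filter on low signals. PEX9 and PEX35 were not named in the probe annotation and were not analysed here.

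Expression was measured in Saccharomyces cerevisiae strain S288C, grown in MOPS-buffered synthetic dextrose medium at pH 7.0, on 6 Affymetrix Yeast Genome 2.0 arrays. Cultures at an optical density (OD) of 0.2 received plakortide F acid (PFA), an antifungal compound from marine sponges, at its IC50 of 0.62 ug/ml, or 0.25% DMSO as the solvent control, and were collected at OD 0.5. Each group held 3 samples that the titles call biological replicates. The labels state neither the culture times nor whether PFA cultures held DMSO, so growth rate, solvent and compound cannot be told apart.

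The deposited intensities are linear, with a trimmed mean of 1001 on each array. The number of arrays limits the precision. Correlations of log2 signals over 5356 genes ran from 0.991 to 0.994 within a group and from 0.923 to 0.929 between groups. The ratio of 3' to 5' signal of ACT1, a sign of RNA quality, was 1.19 to 1.28 over the 6 arrays, that of SPT15 2.13 to 2.40 and that of WBP1 1.86 to 2.70, each highest on DMSO replicate 1. All 4 alpha-cell markers, MF(ALPHA)1, MF(ALPHA)2, SAG1 and STE3, lay above the background level on every array, and the a-cell markers MFA1, MFA2, STE2 and AGA2 did so on every DMSO array. All 8 markers were lower in PFA, and AGA2 was below background on 2 PFA arrays. In RNA from whole cultures, fewer cells that express a gene and less RNA per cell cannot be told apart.

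The peroxisomal genes differed between PFA and DMSO in both directions and mostly by small amounts. Of the 37 members 12 rose and 7 fell in PFA at a limma adjusted p under 0.05, the threshold for both words throughout, and 18 did not pass the test. The share that changed, 51.4%, was below the 62.0% of all 5356 genes tested, of which 30.3% rose and 31.8% fell. Past the threshold and 1.5-fold or more apart were 7 members, PEX5, PEX15, PEX18, FOX2, SPS19, OAF1 and PXA1, against 23.7% of all genes. The PFA and DMSO values did not overlap in 24 members, against 66.6% of all genes. The members' median absolute log2 change was 0.27, and that of all genes was 0.32.

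Both groups of genes held rises and falls. Among the 25 PEX genes 8 rose and 6 fell, and 16 log2 changes were positive, with PEX27 turning negative under quantile normalization and median centring. They ran from -0.45 for PEX32 to 1.06 for PEX18, with a median of 0.10. Among the 10 enzyme and transporter genes 3 rose and 1 fell, and 9 of 10 log2 changes were positive, with PXA2 turning to -0.02 under quantile normalization, at a median of 0.24. The median of all genes was -0.02. Taken per PFA array against the DMSO mean, the PEX median was 0.10, -0.00 and 0.12, and the enzyme median was 0.24, 0.21 and 0.34. The enzyme median lay between the log2 changes of POX1 (0.23) and POT1 (0.25), both read near the background level with wide intervals. The difference between the PEX and enzyme medians was not tested. The PEX and enzyme medians were 0.02 and 0.30 under quantile normalization, 0.03 and 0.17 under median centring, and 0.08 and 0.12 after adding 64 to each signal. In these settings the median of all genes was -0.05, -0.08 and -0.02. Leaving out single arrays gave PEX medians from 0.06 (without DMSO replicate 2) to 0.13 and enzyme medians from 0.23 to 0.40 (without PFA replicate 2). It also turned the signs of the enzyme genes CTA1 and POX1 and of PEX3, PEX25, PEX27 and PEX28. The stricter filter on low signals, which left 7 PEX genes and no enzyme, turned the PEX median to -0.27.

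**Figure D1:**
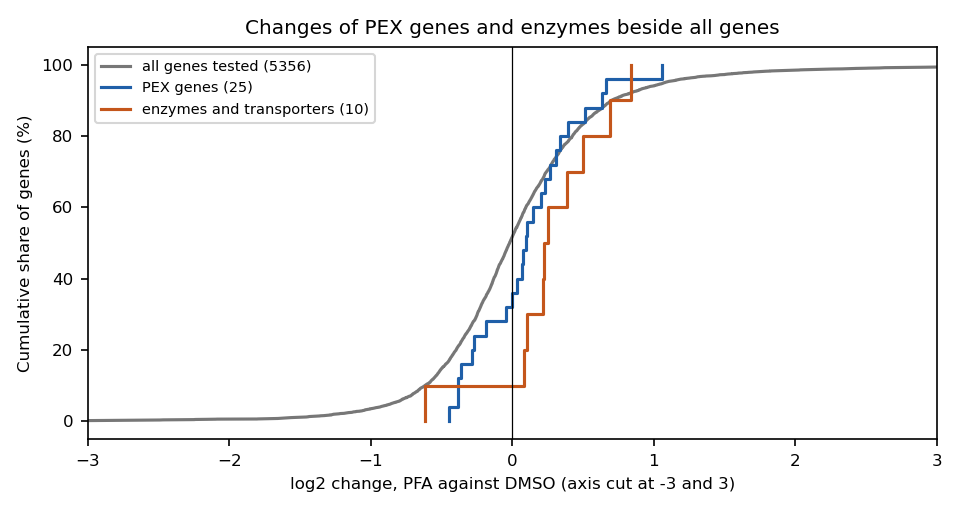
Cumulative share of genes (%) against the log2 change between PFA and DMSO, for all 5356 genes tested (grey), the 25 PEX genes (blue) and the 10 enzyme and transporter genes (orange), with the axis cut at -3 and 3. The PEX curve crosses 50% at a log2 change of 0.10, and 9 of the 10 enzymes lie to the right of 0, PXA2 among them only without quantile normalization. CTA1 and POX1 turned negative when some single arrays were left out.

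Import of matrix enzymes starts with receptors in the cytosol. PEX5 (YDR244W), the receptor for the common C-terminal targeting signal, had signals of 451, 406 and 470 on the DMSO arrays and 678, 692 and 688 on the PFA arrays. Every PFA value was well above every DMSO value, and the PFA arrays lay within a narrow range. The rise was 1.55-fold (log2 0.64 ± 0.09, SE, limma adjusted p = 4.36e-05). With no p threshold, 12.1% of all genes were higher by this much or more.

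The second import route serves few enzymes, among them the thiolase Pot1, and uses the receptor Pex7 with the co-receptor Pex18 or Pex21. These co-receptors are related proteins with overlapping roles, and their transcripts moved in opposite directions. PEX18 (YHR160C) was dim, at 23.2, 32.9 and 28.7 in DMSO and 59.3, 48.5 and 68.4 in PFA, beside a background level of 20.01. All 6 values were above background and the groups did not overlap. The rise of 2.08-fold (log2 1.06 ± 0.32, SE, adjusted p = 0.0122) had the largest log2 change among the members and the widest error among those that passed. Without PFA replicate 3 it was 0.94 with an adjusted p of 0.0547, and after adding 64 to each signal it was 0.41 with the call kept. Over 15 alternatives its adjusted p ran from 0.00107 to 0.0547.

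PEX21 (YGR239C) had 1042, 1161 and 1073 in DMSO and 944, 853 and 888 in PFA. All PFA values were below the DMSO values, and PEX21 was 1.22-fold lower (log2 -0.29 ± 0.08, SE, adjusted p = 0.0084). PEX7 itself, at 842 ± 74.1 in DMSO and 969 ± 40.3 in PFA (SD, n = 3), had a log2 change of 0.21 and did not pass (adjusted p = 0.0578), although its groups did not overlap. Without DMSO replicate 1 the adjusted p for PEX7 was 0.0345, and it ran from 0.0345 to 0.256 over 15 alternatives.

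Receptors loaded with cargo dock on Pex13, Pex14 and Pex17 at the membrane. PEX13 (YLR191W) had 580, 644 and 653 in DMSO and 906, 748 and 728 in PFA. It rose on all 3 PFA arrays, most on replicate 1, by 1.26-fold (log2 0.34 ± 0.10, SE, adjusted p = 0.0103). Without PFA replicate 1 the log2 change was 0.24 and the call was lost (adjusted p = 0.0576, with 0.00758 to 0.0576 over 15 alternatives).

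PEX14 (YGL153W), the main docking protein, went the other way. Its signals were 1578, 1518 and 1275 in DMSO and 1136, 1236 and 985 in PFA. The groups did not overlap, but the lowest DMSO and the highest PFA value were close. PEX14 was 1.30-fold lower (log2 -0.38 ± 0.11, SE, adjusted p = 0.00719).

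PEX17 had a log2 change of 0.23 (adjusted p = 0.067) with overlapping groups. PEX8, which links the docking and ubiquitin ligase complexes inside the organelle, had a log2 change of -0.18 (adjusted p = 0.0646). PEX8 passed when arrays were centred on their medians (adjusted p = 0.0159), quantile normalized (0.019) or fitted without PFA replicate 3 (0.0417), with 0.0159 to 0.244 over 15 alternatives. PEX17 passed without DMSO replicate 1 (adjusted p = 0.028) or PFA replicate 3 (0.0348), with 0.028 to 0.191 over 15 alternatives.

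After release of the cargo the receptor is ubiquitinated, by the conjugating enzyme Pex4 on its anchor Pex22 and by ligases that include Pex2 and Pex10. PEX10 (YDR265W) rose. Its signals were 857, 887 and 870 in DMSO and 1083, 1151 and 1207 in PFA. All PFA arrays lay above the DMSO arrays. The increase was 1.32-fold (log2 0.40 ± 0.08, SE, adjusted p = 0.000759).

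PEX2 (YJL210W) and PEX22 (YAL055W) fell. PEX2 had 1236, 1224 and 1456 in DMSO and 1053, 1152 and 1040 in PFA, with no overlap (log2 -0.27 ± 0.09, SE, adjusted p = 0.0203). DMSO replicate 3 was its highest value, and without it the log2 change was -0.19 with an adjusted p of 0.0991. The call for PEX2 was also lost without PFA replicate 1 (0.0636) and without PFA replicate 3 (0.052), and its adjusted p ran from 0.00638 to 0.0991 over 16 alternatives. PEX22 went from 1204 ± 163 to 934 ± 95.8 (SD, n = 3), 1.29-fold lower (adjusted p = 0.0112), with no overlap. PEX4 had a log2 change of 0.15 with a 95% interval from -0.13 to 0.43 (adjusted p = 0.344).

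An ATPase complex that contains Pex6 and is held at the membrane by Pex15 then pulls the receptor back to the cytosol. PEX15 (YOL044W) had 467, 516 and 453 in DMSO and 722, 752 and 794 in PFA. Every PFA value exceeded every DMSO value by a wide margin. PEX15 rose 1.58-fold (log2 0.66 ± 0.09, SE, adjusted p = 3.29e-05), the smallest adjusted p among the PEX genes. PEX6 had a log2 change of 0.10 (95% interval -0.08 to 0.28, adjusted p = 0.31).

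Membrane proteins reach the peroxisome through Pex19, their cytosolic receptor, and Pex3, which receives it at the membrane. Neither gene passed the test. PEX3 was at 979 ± 20.8 in DMSO and 949 ± 56.6 in PFA, and PEX19 at 1080 ± 42.3 and 1140 ± 61.7 (SD, n = 3). The 95% intervals of the PFA to DMSO ratio were 0.86 to 1.09 for PEX3 and 0.936 to 1.19 for PEX19.

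**Figure D2:**
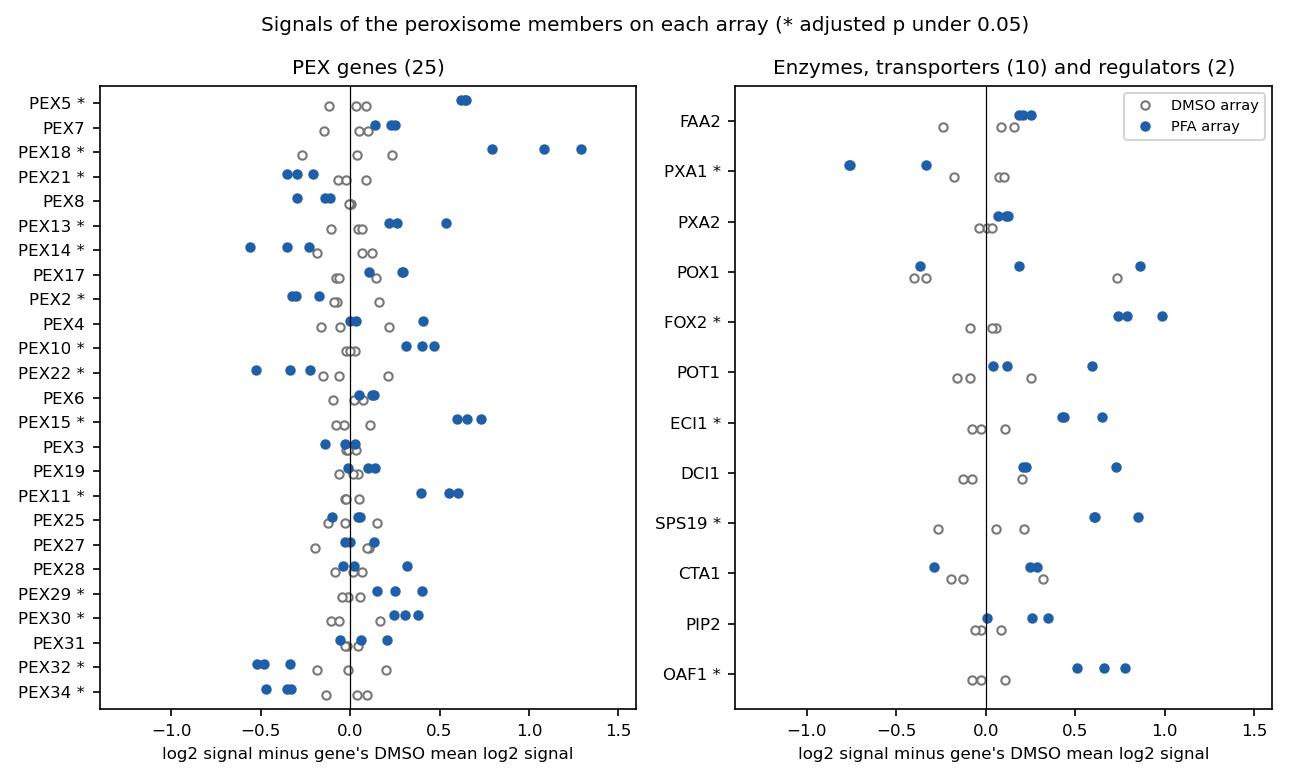
Log2 signal of each member on each array, minus that gene's mean log2 signal in DMSO, with open grey points for the 3 DMSO arrays and blue points for the 3 PFA arrays. An asterisk marks the 19 genes with a limma adjusted p under 0.05. PEX5, PEX15, PEX11 and FOX2 show blue points clear of the grey ones on the right, and PEX32, PEX34 and PXA1 on the left.

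Another group of peroxins controls how many peroxisomes a cell has and how large they grow. PEX11 (YOL147C), which encodes an abundant membrane protein that elongates peroxisomes before they divide, had 2526, 2659 and 2537 in DMSO and 3909, 3770 and 3382 in PFA. The groups lay far apart. PEX11 rose 1.43-fold (log2 0.52 ± 0.07, SE, adjusted p = 6.89e-05). Its relatives PEX25 and PEX27 did not pass, with log2 changes of -0.00 (95% interval -0.19 to 0.19) and 0.03 (-0.21 to 0.28), the latter -0.08 under quantile normalization and -0.03 under median centring.

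PEX30, PEX31 and PEX32 encode related membrane proteins that act on peroxisome size and number. PEX30 rose 1.24-fold, from 679 ± 71.0 to 839 ± 39.3 (SD, n = 3, adjusted p = 0.011). PEX32 (YBR168W) fell, with 473, 534 and 619 in DMSO and 375, 386 and 428 in PFA. Its groups did not overlap, and it was 1.36-fold lower (log2 -0.45 ± 0.11, SE, adjusted p = 0.00352). PEX31 had a log2 change of 0.07 (95% interval -0.12 to 0.27).

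PEX29, which like PEX28 acts on peroxisome size and number, rose from 624 ± 22.8 to 753 ± 66.6 (SD, n = 3, log2 0.27, adjusted p = 0.0188). That call rested on the settings. It was lost under median centring (adjusted p = 0.0613) and quantile normalization (0.0581), and also without DMSO replicate 2 (0.0653) or PFA replicate 3 (0.0663), with 0.0136 to 0.0663 over 15 alternatives. PEX28 had a log2 change of 0.10 (adjusted p = 0.468). PEX34 (YCL056C), whose product acts with the Pex11 family on peroxisome number, had 1998, 1922 and 1708 in DMSO and 1490, 1463 and 1349 in PFA. All PFA values were lower, and PEX34 was 1.31-fold lower (log2 -0.39 ± 0.08, SE, adjusted p = 0.0016).

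**Figure D3:**
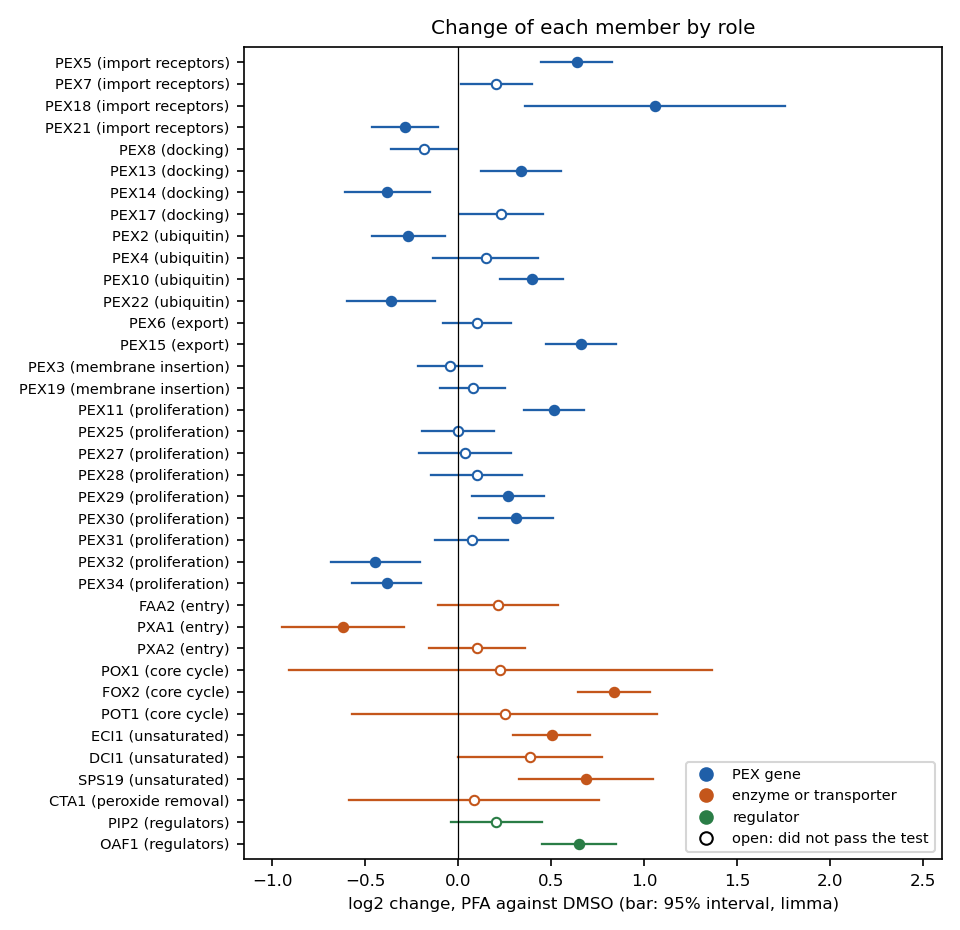
Log2 change of each member between PFA and DMSO with its 95% interval (limma), grouped by role, with filled points for genes that passed the test and open points for those that did not. PEX genes are blue, enzymes and transporters orange and regulators green. Rises and falls stand side by side within the roles of import receptors, docking, ubiquitin and proliferation, and the widest intervals belong to POX1, POT1, PEX18 and CTA1.

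Fatty acids enter the organelle as free medium-chain acids, which Faa2 activates inside, or as long-chain acyl-CoA through the half-transporters Pxa1 and Pxa2, which pair to form an ABC transporter. PXA1 (YPL147W) had 213, 253 and 258 in DMSO and 141, 191 and 142 in PFA. All PFA values were below the DMSO values. PXA1 was 1.54-fold lower (log2 -0.62 ± 0.15, SE, adjusted p = 0.00317), the largest fall among the members. With no p threshold, 9.93% of all genes were lower by this much or more. PXA2 (YKL188C) had 184, 187 and 178 in DMSO and 198, 191 and 199 in PFA. Its groups did not overlap, yet the log2 change of 0.10 did not pass (adjusted p = 0.478), and quantile normalization turned it to -0.02. FAA2 had a log2 change of 0.22 (95% interval -0.11 to 0.54, adjusted p = 0.226).

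In the core cycle, the acyl-CoA oxidase Pox1 makes hydrogen peroxide in its first step, the multifunctional enzyme Fox2 carries out the next pair of steps, and the thiolase Pot1 releases acetyl-CoA. FOX2 (YKR009C) had 715, 646 and 706 in DMSO and 1149, 1360 and 1189 in PFA. Every PFA value was far above the DMSO values. FOX2 rose 1.79-fold (log2 0.84 ± 0.09, SE, adjusted p = 5.1e-06), the smallest adjusted p among the members. With no p threshold, 7.88% of all genes were higher by this much or more. The adjusted p of FOX2 stayed at or below 0.000151 over 15 alternatives.

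The genes for the first and last enzymes stayed near the background level. POX1 (YGL205W) had 36.6, 16.7 and 17.5 in DMSO and 24.98, 17.1 and 40.03 in PFA. It was below background on 2 DMSO arrays and 1 PFA array, and the groups overlapped. Its log2 change was 0.23 with a 95% interval from -0.91 to 1.36 (adjusted p = 0.724), so a ratio anywhere from 0.531 to 2.58 was within the error. Without PFA replicate 3 its log2 change was -0.09.

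POT1 (YIL160C) had 34.2, 27.0 and 25.7 in DMSO and 43.3, 31.1 and 29.5 in PFA. The values overlapped (log2 0.25, 95% interval -0.57 to 1.07, adjusted p = 0.586), and without PFA replicate 1 the log2 change of POT1 was 0.08. CTA1 (YDR256C), the gene for the peroxisomal catalase that removes the hydrogen peroxide, had 55.0, 40.4 and 38.6 in DMSO and 52.4, 53.9 and 36.1 in PFA. Its groups overlapped as well (log2 0.08, 95% interval -0.59 to 0.76, adjusted p = 0.83). For these 3 genes a change of the size seen in FOX2 lay inside the interval for POX1 and POT1 and outside it for CTA1. Whether the rise of FOX2 differed from the changes of POX1, POT1 and CTA1 was not tested.

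Unsaturated fatty acids need auxiliary enzymes that shift or reduce their double bonds. ECI1 (YLR284C), for the enoyl-CoA isomerase, had 438, 480 and 423 in DMSO and 699, 603 and 599 in PFA. It rose 1.42-fold (log2 0.50 ± 0.10, SE, adjusted p = 0.00058) with no overlap. SPS19 (YNL202W), for the dienoyl-CoA reductase, had 115, 128 and 91.7 in DMSO and 168, 199 and 169 in PFA. All 3 PFA arrays were higher, and the rise was 1.61-fold (log2 0.69 ± 0.17, SE, adjusted p = 0.00305).

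DCI1, a relative of ECI1, had 112, 116 and 141 in DMSO and 143, 141 and 203 in PFA. Its highest DMSO and lowest PFA values nearly touched, and its log2 change of 0.39 did not pass (adjusted p = 0.0771). The PFA values of ECI1, SPS19 and DCI1 were all higher than their DMSO values.

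**Figure D4:**
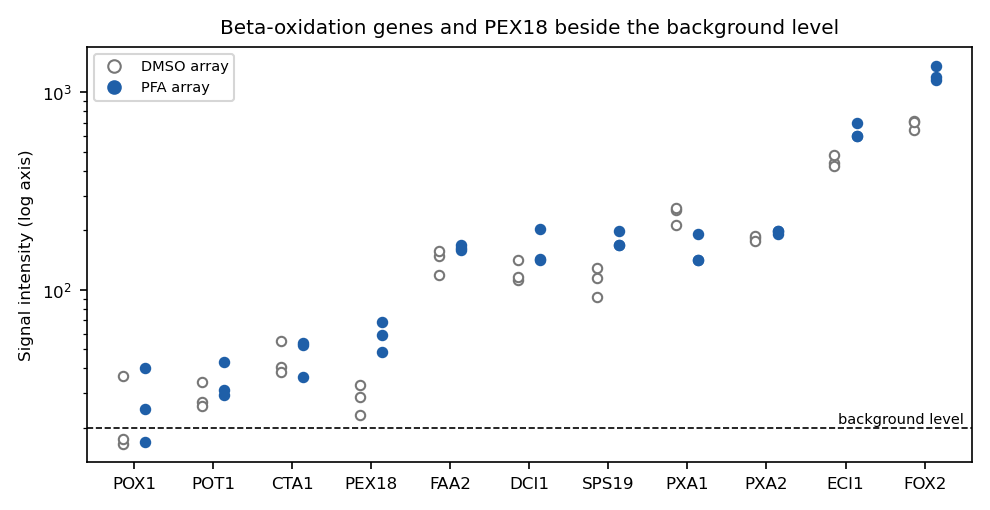
Signal intensity (log axis) of the 10 enzyme and transporter genes and PEX18 on the 3 DMSO arrays (open grey) and the 3 PFA arrays (blue), with the background level of 20.01 as a dashed line. POX1 lies on both sides of the line and POT1, CTA1 and PEX18 are the next above it. Signals of different probe sets are not comparable as transcript levels.

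Of the regulators, OAF1 (YAL051W) had 806, 735 and 710 in DMSO and 1069, 1182 and 1284 in PFA. Every PFA array was above every DMSO array, and OAF1 rose 1.57-fold (log2 0.65 ± 0.09, SE, adjusted p = 5.37e-05). PIP2 (YOR363C), which encodes its partner and is itself a target of the pair, had 290, 284 and 314 in DMSO and 297, 354 and 376 in PFA. PFA replicate 1 lay among the DMSO values. Its log2 change was 0.20 (95% interval -0.04 to 0.45, adjusted p = 0.133), and 0.30 without that array (adjusted p = 0.0424, with 0.0424 to 0.422 over 15 alternatives).

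Several members work in pairs or share a role. In the ratio of such genes within an array a common scaling factor cancels, whereas quantile normalization or a pseudocount need not. These 7 pairs were chosen with the values known, so the ratios are a description with no test. The log2 ratio of PEX18 to PEX21 went from -5.29 ± 0.18 to -3.94 ± 0.22, and that of PEX13 to PEX14 from -1.22 ± 0.24 to -0.50 ± 0.21 (SD, n = 3). That of PEX10 to PEX2 went from -0.58 ± 0.15 to 0.08 ± 0.12, and that of PEX4 to PEX22 from -1.52 ± 0.01 to -1.01 ± 0.26 (SD, n = 3). The genes of each of these pairs were ordered so that the first gained on the second in PFA.

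The remaining pairs were read in the same way. The log2 ratio of PEX15 to PEX6 went from -0.32 ± 0.19 to 0.24 ± 0.08, that of PXA2 to PXA1 from -0.40 ± 0.17 to 0.32 ± 0.28, and that of OAF1 to PIP2 from 1.34 ± 0.15 to 1.79 ± 0.06 (SD, n = 3). Here too the order of the genes in a pair was set so that the ratio was higher in PFA. The shifts ran from 0.44 ± 0.09 for OAF1 and PIP2 to 1.34 ± 0.17 for PEX18 and PEX21 (SE). The last of these depends on PEX18, which lay near the background level. After adding 64 to each signal the log2 change of PEX18 went from 1.06 to 0.41, and that of PEX21 from -0.29 to -0.27.

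**Figure D5:**
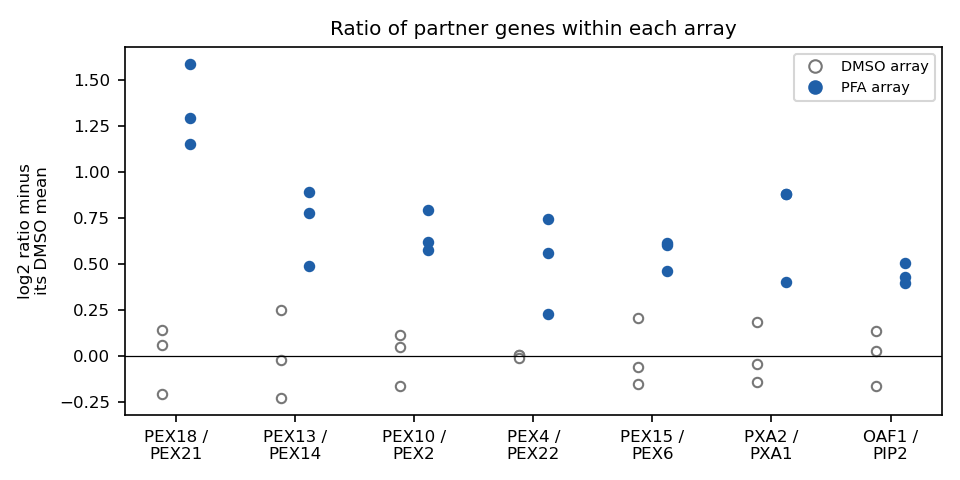
Log2 ratio of the signals of 2 partner genes on each array, minus the mean ratio in DMSO, for the 7 pairs named under the axis, with open grey points for DMSO and blue points for PFA arrays. The blue points lie above the grey ones in each pair, by 1.34 on average for PEX18 over PEX21 and by 0.44 for OAF1 over PIP2. The pairs were chosen with the values known, and their genes were ordered so that each ratio was higher in PFA. PEX18 lay near the background level.

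Genes outside the rule that serve the same organelle or the same fatty acid response were read from 4 lists holding 47 names. Of the 45 that were tested 21 rose, 7 fell and 17 did not pass, against 30.3% higher and 31.8% lower among all genes. The shares that changed were 87.5% for fatty acid activation and carnitine, 58.8% for other enzymes, 50% for fission and degradation, and 60% for regulators. That of all genes was 62.0%. The median log2 change of the 45 was 0.20, beside 0.20 for the members and -0.02 for all genes. The members and these lists were chosen with earlier results of these data known. Their counts and medians are therefore a description, with no test over a list. MLS1 did not pass the filter on low signals, and PXP1 was not named in the probe annotation.

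The list of fatty acid activation and the carnitine shuttle, which carries acetyl units out of the peroxisome, had 6 of 8 genes higher and 1 lower. AGP2, a plasma membrane protein needed for carnitine uptake, rose 2.02-fold (adjusted p = 5.79e-05). The carnitine acetyltransferase genes YAT1 and YAT2 rose 1.84-fold (adjusted p = 7.22e-06) and 1.29-fold (adjusted p = 0.00597). FAA1 and FAA4, for the main long-chain acyl-CoA synthetases, rose 1.27-fold and 1.26-fold, whereas FAA3 was 1.66-fold lower (log2 -0.73 ± 0.09, SE, adjusted p = 1.23e-05).

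Among 17 tested genes for other peroxisomal enzymes and carriers 6 rose and 4 fell, with a median log2 change of 0.04. CAT2, the carnitine acetyltransferase of peroxisomes and mitochondria, had 152, 157 and 160 in DMSO and 333, 347 and 264 in PFA. It rose from 156 ± 3.82 to 315 ± 44.3 (SD, n = 3, adjusted p = 2.82e-05), with all PFA arrays far above the DMSO arrays. TES1, a peroxisomal acyl-CoA thioesterase gene, rose 1.88-fold (adjusted p = 4.78e-06), and DAL7, a malate synthase gene, 1.49-fold (log2 0.57, adjusted p = 0.0119). PFA replicate 3 was the highest of the DAL7 values, and without it the log2 change was 0.34 with the call kept (adjusted p = 0.0398, with 0.00243 to 0.0398 over 15 alternatives). LYS4, a lysine synthesis gene that the list holds although its enzyme is mitochondrial, was 1.48-fold lower (adjusted p = 5.93e-05).

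Of 10 genes for fission, inheritance and selective degradation of peroxisomes 5 rose and 5 did not pass. ATG11, the scaffold of selective autophagy, rose 2.54-fold, from 587 ± 33.4 to 1490 ± 26.8 (SD, n = 3, adjusted p = 2.31e-08). ATG36, the receptor that marks peroxisomes for degradation, rose from 322 ± 16.9 to 485 ± 40.7 (SD, n = 3, adjusted p = 0.000227). DNM1 and FIS1, which divide both peroxisomes and mitochondria, rose 1.54-fold (adjusted p = 3.84e-05) and 1.38-fold (adjusted p = 0.000656). INP2, which ties peroxisomes to the myosin that carries them into the bud, had a log2 change of 0.30 and did not pass (adjusted p = 0.0705). It passed when DMSO replicate 1 (adjusted p = 0.0154) or PFA replicate 1 (0.0269) was left out, with 0.0154 to 0.25 over 15 alternatives.

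In the list of regulators of the oleate and glucose response 4 of 10 rose and 2 fell. ADR1, the activator that acts with Oaf1 and Pip2 on many beta-oxidation genes, had 99.4, 41.4 and 70.6 in DMSO and 631, 614 and 617 in PFA. Its groups lay far apart (log2 3.23 ± 0.24, SE, adjusted p = 2.02e-07), although its DMSO values were low and scattered. Over 15 alternatives its log2 change ran from 2.37 to 3.52, with the call kept. With no p threshold, 0.504% of all genes were higher by as much as ADR1 or more. MIG1, the glucose repressor, had 553, 348 and 664 in DMSO and 812, 1227 and 1437 in PFA. It rose 2.24-fold (log2 1.16 ± 0.23, SE, adjusted p = 0.000695) with a wide spread in both groups.

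REG1, which directs the phosphatase that keeps the kinase Snf1 inactive, rose 1.39-fold (adjusted p = 0.000315), and SIP1, a subunit of the Snf1 complex, 1.35-fold (adjusted p = 0.000268). SNF4, its activating subunit, was 1.35-fold lower (adjusted p = 0.00195). SNF1 itself had a log2 change of 0.02 (95% interval -0.16 to 0.21), which turned to -0.02 after quantile normalization and to -0.04 after centring on the median. OAF3, a repressor of oleate-responsive genes, had a log2 change of 0.14 (95% interval -0.11 to 0.38, adjusted p = 0.313).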

How the data were processed

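Probe sets were given genes from GEO's platform annotation, with symbols updated from RefSeq. The deposited values are intensity signals, 1 per probe set and array, scaled by the authors to a common trimmed mean. GCOS 1.1 is named in the submitters' processing notes; the summary algorithm is not. No scaling or pseudocount was added. Groups and replicate numbers come from the sample titles.

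Background was set at log2 4.32, which 95% of 1746 probe sets for another organism did not exceed on average. Genes above it (5356 of 5449) were tested, each on its brightest probe set, by lmFit and trended eBayes of limma 3.58.1 under R 4.3.3 (two-sided, no replicate block, p-values adjusted by Benjamini-Hochberg over the 5356 genes, threshold 0.05). "Rose" and "fell" are used for genes past that threshold. Fold changes are ratios of geometric means. P-values weigh the difference between groups against the spread among these cultures, with each gene's variance drawn towards that of genes of similar signal. Figures used matplotlib 3.10.9 in Python 3.11.15.

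The members and lists were chosen with earlier results of these data known. All members were named, with up to 4 changed genes of largest change from each further list and ADR1, OAF3, SNF1, SNF4, MIG1, FAA1, FAA4, CAT2, ATG36 and INP2. In simulated data for this comparison (5356 genes) 72.9% of log2 changes of 0.585 (43 of 59), 91.9% of those of 1 (68 of 74) and 100% of those of 2 (67 of 67) were recovered, with 11 false calls. The simulation used independent noise and left 5156 genes unchanged, whereas 62.0% of genes passed in the data. Its rates therefore do not carry over directly to this comparison. Targeting signals and promoter motifs were not analysed here. Some genes of the pathway are not reported here. Alternatives were a replicate block, quantile normalization, median centring, pseudocounts of 16 and 64, untrended eBayes, a stricter or no filter, other probe set choices and leaving out each array.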

Additional observations from a re-analysis of the deposited data

How the results depend on the processing

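Of 562 values of the 37 members under 16 alternatives, 533 kept their direction and their side of the threshold, 9 lost and 8 gained a call and 12 turned in sign, and 15 of the 19 changed members kept their call in every alternative that tested them. The exceptions were PEX2, PEX13, PEX18 and PEX29. The stricter filter, at the median yeast signal, left 7 members and no enzyme or regulator. Of these, 1 PEX gene rose and 4 fell, with a median of -0.27, and 10 of the further listed genes rose and 4 fell. Over all genes it gave 813 higher and 1080 lower, where 1622 and 1701 were found with the filter at background. The filter tested 2724 genes. The 7 members left had the same log2 changes as with the filter at background, so the PEX median moved because the other PEX genes were left out. Why bright and dim genes differed in their share of lower calls was not tested.

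Quantile normalization gave a PEX median of 0.022 and log2 changes of -0.078 for PEX27, -0.0198 for PXA2 and -0.0178 for SNF1. Median centring gave -0.0297 for PEX27 and -0.0424 for SNF1. The median of all genes was -0.047 under quantile normalization and -0.084 under median centring. A pseudocount of 64 gave an enzyme median of 0.117. Leaving out each array gave enzyme medians from 0.231 to 0.396 and 1 to 2 regulators higher. It gave log2 changes from -0.0191 to 0.269 for CTA1, -0.0627 to 0.0747 for PEX25, -0.0649 to 0.088 for PEX27, -0.0098 to 0.169 for PEX28, 0.0778 to 0.375 for POT1, -0.092 to 0.593 for POX1, and -0.084 to 0.0013 for PEX3 and -0.0383 to 0.09996 for SNF1. None of the genes whose sign turned had passed the test, and the cause was not tested.

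Deviations of same-numbered arrays from their group means had correlations of -0.046, -0.09 and 0.156 over 5356 genes. Those of differently numbered arrays ran from -0.105 to 0.164. With 3 arrays per group these values cannot decide whether the numbers pair the samples. With the replicate block 13 members rose and 7 fell, DCI1 being added (adjusted p = 0.0476, with 0.0476 to 0.311 over 15 alternatives). Signals near background limit POX1, POT1, CTA1 and PEX18.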
